A study of Mus musculus with 12 samples.

Results

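Bone marrow-derived macrophages (BMDMs) labelled WT were set against 3T3 fibroblasts grown in medium conditioned by WT BMDMs, which is the baseline pair of cell types in a study of macrophage PHD2, an oxygen-sensing prolyl hydroxylase. The comparison took the libraries whose labels give these conditions, 6 of the 12 libraries of the series, with 3 in each group. The WT macrophages came from LysMCre mice on a C57Bl6/J background. These donors therefore carry Cre under the lysozyme M promoter, like the PHD2cko mice of the study, but keep an intact PHD2 gene. Bone marrow was differentiated in RPMI-1640 with 10% FCS and 15% L929-conditioned medium, a source of macrophage colony-stimulating factor, and RNA was taken 24 h after seeding. NIH/3T3, an immortal line of mouse embryonic fibroblasts, was starved of serum and then kept for 72 h in BMDM-conditioned DMEM with 2% FCS and 15% L929-conditioned medium. Cell type, origin (primary cells or a line), genetic background, medium and time thus differ together between the groups and cannot be told apart. The labels do not say whether the 3 replicates of a group came from separate animals or cultures. The p-values therefore measure a spread between replicate libraries that may be technical. That spread was estimated over all 12 libraries of the series. The oxygen condition of the sequenced cultures is not given in the sources used here.

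Macrophages arise from bone marrow progenitors under the transcription factor PU.1 and the receptor for macrophage colony-stimulating factor. They engulf particles, degrade them in lysosomes and sense microbes through pattern-recognition receptors. Fibroblasts build the extracellular matrix: they secrete fibrillar collagens, crosslink them and pull on them through integrins and actin cables. In atherosclerotic plaques, macrophages take up lipid and fibroblast-like cells lay down collagen.

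The BMDM libraries held 17182568, 18241415 and 18188947 estimated counts and the 3T3 libraries 18233073, 25199770 and 17354031. Mitochondrial transcripts took 3.30 to 3.41% of the counts in BMDMs and 6.57 to 6.74% in 3T3 cells. 3T3 replicate 1 stood apart from replicates 2 and 3: a chi-square statistic of its counts against theirs was 24.8 and 26.9 per degree of freedom, against 2.35 between replicates 2 and 3 and 1.99 to 4.44 between BMDM libraries. All 15 macrophage markers checked were more than 2-fold higher in BMDMs, and all 15 fibroblast markers were more than 2-fold higher in 3T3 cells. The macrophage markers summed to 37700 to 39300 counts per 1e6 counts (CPM) in BMDMs and to 28.2 to 31.9 CPM in 3T3 cells, 0.0731 to 0.0827% of the macrophage sum. The fibroblast markers summed to 28300 to 30600 CPM in 3T3 cells and to 3.83 to 10.2 CPM in BMDMs. Twist1 was at 0 in all BMDM libraries. Where values of single libraries follow, they run from replicate 1 to 3. The labels and the markers point the same way in every library.

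Of the 14285 genes tested, 5765 (40.4%) were higher in BMDMs and 6417 (44.9%) were higher in 3T3 cells at an adjusted p under 0.05 (edgeR's quasi-likelihood test, Benjamini-Hochberg adjustment). Because most genes differed, a stricter test asked whether a difference was larger than 2-fold. By that test 2980 genes (20.9%) were higher in BMDMs and 3456 (24.2%) were higher in 3T3 cells, and genes described as more than 2-fold higher passed it. These 2 percentages are the background for every gene list. The median log2 fold change over all genes tested, BMDM over 3T3, was -0.08. With total counts in place of TMM normalization this median moved by -0.27, so small differences depend on the scaling. The libraries of the groups did not overlap for 12157 genes (85.1%). More than 32-fold differences were found in both directions, for 867 genes higher in BMDMs and 1337 higher in 3T3 cells. In bulk RNA, fewer cells of a type and less RNA per cell cannot be told apart. The plot of mean levels shows these genes as arms along both axes, with Vim, Itgb1 and Egln1 near the diagonal.

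**Figure D1:**
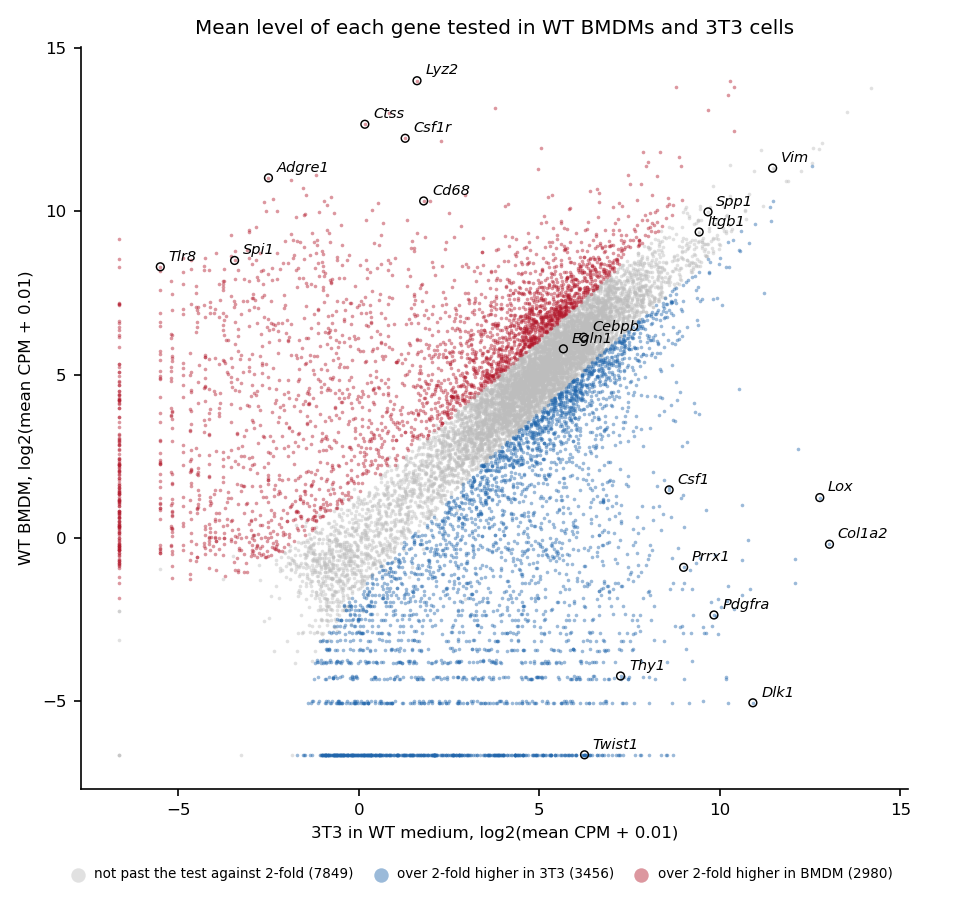
Mean level of each of the 14285 genes tested, as log2(mean CPM + 0.01), in 3T3 cells in WT medium (x axis) and WT BMDMs (y axis), 3 libraries each. Red points are the 2980 genes more than 2-fold higher in BMDMs, blue points the 3456 more than 2-fold higher in 3T3 cells and grey points the rest; genes at 0 lie on the outer lines.

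Macrophage lineage factors separated the cell types in 15 of 16 cases. These 15 were more than 2-fold higher in BMDMs, none of the 16 was higher in 3T3 cells by that test, and the median log2 fold change was 6.63. Spi1, which encodes PU.1 (ENSMUSG00000002111.8, chromosome 2, 91082390 to 91115756), was at 363, 354 and 368 CPM in the BMDM libraries and 0.0509, 0.0363 and 0.159 CPM in the 3T3 libraries. Spi1 was therefore higher in BMDMs, with no overlap (log2 fold change 12.10, standard error 0.55, adjusted p = 1.26e-10). All BMDM libraries thus lay far above all 3T3 libraries. Irf8, a partner of PU.1 in monocytes and macrophages, was at 292, 289.8 and 291 CPM in the BMDM libraries and 0, 0.0363 and 0 CPM in the 3T3 libraries. Irf8 was 19235-fold higher in BMDMs, 95% counting interval 3452 to 759810. Cebpa, a myeloid factor (4447-fold higher in BMDMs, interval 1230.5 to 36726), and Ikzf1, a factor of blood cells (log2 fold change 10.77), were likewise nearly restricted to BMDMs. Some factors with wider use differed less. Runx1 was at 141 ± 3.52 CPM in BMDMs and 64.3 ± 5.23 CPM in 3T3 cells (SD, n = 3 each here and below, BMDMs first where 2 values are set against each other). Maf was at 448 ± 8.33 against 51.3 ± 5.25 CPM and Zeb2 at 648 ± 28.1 against 64.7 ± 3.997 CPM. The log2 fold change of Spic, a further member of the list, was also low, at 1.89. Cebpb was the exception. Its levels were 65.9, 68.7 and 77.9 CPM in the BMDM libraries and 97.3, 69.7 and 57.5 CPM in the 3T3 libraries. Cebpb overlapped between the groups (log2 fold change -0.08, standard error 0.16, adjusted p = 0.648).

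Mesenchymal transcription factors showed the mirror image. Of 28 listed genes, 23 passed the filter on low counts and all 23 were more than 2-fold higher in 3T3 cells. Their median log2 fold change was -9.93, or -8.33 with genes at 0 set at their bound. Prrx1, a homeobox factor of limb and skin mesenchyme (ENSMUSG00000026586.16, chromosome 1, 163245119 to 163313710), was at 0.909, 0.303 and 0.365 CPM in the BMDM libraries and 474, 534 and 521 CPM in the 3T3 libraries. Prrx1 was lower in every BMDM library (log2 fold change -9.93, standard error 0.15, adjusted p = 4.04e-15). Twist1, a basic helix-loop-helix factor of mesenchyme, was at 0 CPM in every BMDM library and 89.7, 68.8 and 69.5 CPM in the 3T3 libraries. Twist1 was at least 1213-fold higher in 3T3 cells. Osr1 was at 0, 0.0605 and 0 CPM in the BMDM libraries and 163, 156 and 153 CPM in the 3T3 libraries. Osr1 was 7603-fold higher in 3T3 cells, 95% counting interval 1364 to 300320. No BMDM library came near any 3T3 library for these genes. The TEAD factors and their partners YAP and TAZ, which read out cell spreading and tension, belonged to this group. Tead1 was at 0.130, 0.121 and 0.122 CPM in the BMDM libraries and 151, 219 and 228 CPM in the 3T3 libraries. Tead1 was therefore lower in BMDMs, with no overlap (log2 fold change -10.57, standard error 0.27, adjusted p = 3.66e-13). Wwtr1, which encodes TAZ, was at 0.0404 ± 0.0699 CPM in BMDMs and 111 ± 3.498 CPM in 3T3 cells and Yap1 at 1.099 ± 0.132 against 134 ± 0.404 CPM. Runx2, a bone and fibroblast factor, differed least, at 23.7 ± 1.51 CPM in BMDMs and 65.2 ± 2.22 CPM in 3T3 cells (log2 fold change -1.46). The 5 members that did not pass the filter were Tcf21, Msx1, Msx2, Foxd1 and Gli1.

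**Figure D2:**
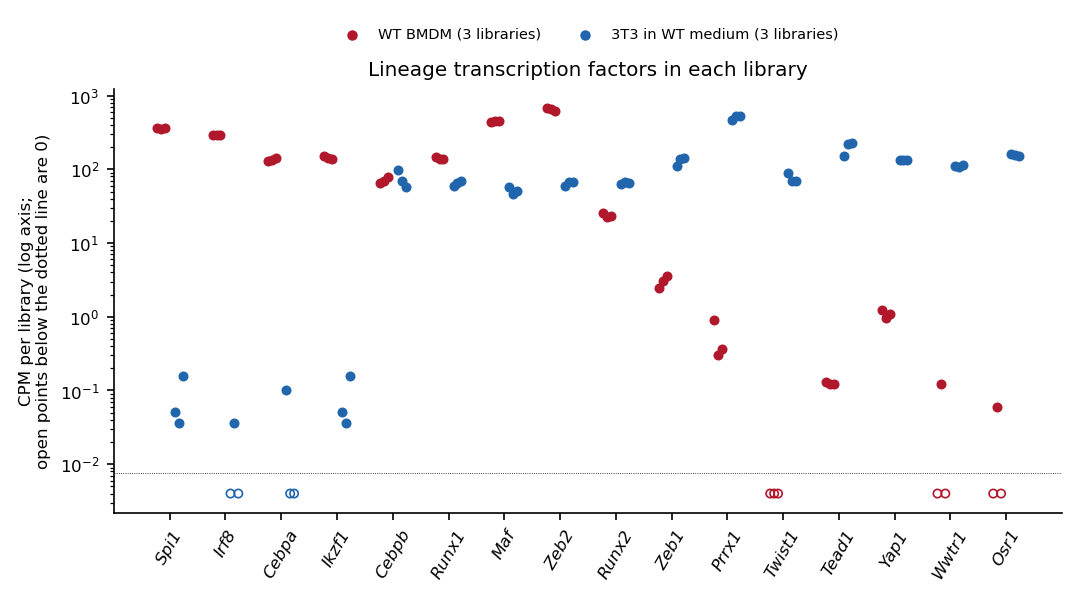
CPM of 16 lineage transcription factors in each of the 3 WT BMDM libraries (red) and the 3 libraries of 3T3 cells in WT medium (blue), on a log axis, with libraries at 0 drawn as open points below the dotted line. Spi1 to Ikzf1 are high in BMDMs, Cebpb overlaps between the groups, and Prrx1 to Osr1 are high in 3T3 cells.

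Hox genes, which record position along the body axis, were mostly found in 3T3 cells. Of 39 Hox genes, 23 could be tested, 18 were more than 2-fold higher in 3T3 cells and 1 was more than 2-fold higher in BMDMs (median log2 fold change -6.15, or -5.05 with bounds). Hoxd8 was at 0 CPM in every BMDM library and 52.7, 46.4 and 43.5 CPM in the 3T3 libraries. Hoxd8 was at least 764-fold higher in 3T3 cells. Hoxd4 (at least 215-fold higher in 3T3 cells), Hoxd9 (at least 191-fold higher in 3T3 cells) and Hoxc5 (at least 118-fold higher in 3T3 cells) were also at 0 in every BMDM library. Hoxb4, a gene known from blood stem cells, went the other way, at 6.56, 7.14 and 7.42 CPM in the BMDM libraries and 0.356, 0.218 and 0.159 CPM in the 3T3 libraries. Hoxb4 was higher in every BMDM library (log2 fold change 4.82, standard error 0.23, adjusted p = 1.91e-10).

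Receptors and surface proteins of macrophages were on the BMDM side. Of 34 listed genes, 33 were tested and all 33 were more than 2-fold higher in BMDMs, with a median log2 fold change of 9.80. Csf1r, the receptor for macrophage colony-stimulating factor (ENSMUSG00000024621.16, chromosome 18, 61100598 to 61132149), was at 4961, 4703 and 4851 CPM in the BMDM libraries and 2.49, 2.29 and 2.48 CPM in the 3T3 libraries. Csf1r was therefore higher in BMDMs, with no overlap (log2 fold change 10.97, standard error 0.49, adjusted p = 1.04e-10). Adgre1, the classical macrophage antigen, was at 2116, 2106 and 2040.1 CPM in the BMDM libraries and 0, 0.181 and 0.317 CPM in the 3T3 libraries. Adgre1 was higher in every BMDM library (log2 fold change 13.56, standard error 0.64, adjusted p = 1.72e-10). No 3T3 library came near any BMDM library for either gene. Itgam, the complement receptor alpha subunit CD11b, was at 1277 ± 22.3 CPM in BMDMs and 0.503 ± 0.270 CPM in 3T3 cells (log2 fold change 11.22). Ptprc, the leukocyte phosphatase CD45, was at 1222 ± 37.9 CPM in BMDMs and 1.45 ± 0.350 CPM in 3T3 cells (log2 fold change 9.74). Tyrobp, the adaptor that carries signals of many activating receptors, was at 729 ± 11.1 CPM in BMDMs and 0.130 ± 0.0449 CPM in 3T3 cells (log2 fold change 12.32). Scavenger and pattern receptors behaved alike: Cd36 was at 155 ± 12.1 CPM in BMDMs and 0.0594 ± 0.0541 CPM in 3T3 cells, Mrc1 at 557 ± 10.7 against 0.270 ± 0.0594 CPM and Clec7a, a receptor for fungal glucans, at 294 ± 0.957 against 0.0411 ± 0.0372 CPM. The smallest differences in the list were those of Mertk, a receptor for dying cells (136 ± 4.799 CPM in BMDMs and 12.5 ± 1.99 CPM in 3T3 cells; log2 fold change 3.44), and Trem2, a lipid-sensing receptor (606 ± 15.4 against 16.6 ± 0.666 CPM; log2 fold change 5.19). Marco, a scavenger receptor, did not pass the filter and was at 0.168 ± 0.1 CPM in BMDMs and 0 CPM in 3T3 cells.

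Of 38 receptors and surface proteins listed as mesenchymal, 26 were more than 2-fold higher in 3T3 cells, but 5 were more than 2-fold higher in BMDMs (median log2 fold change -6.0). Pdgfra, a receptor for platelet-derived growth factor (ENSMUSG00000029231.15, chromosome 5, 75152292 to 75198215), was at 0.130, 0.303 and 0.122 CPM in the BMDM libraries and 805, 937 and 996 CPM in the 3T3 libraries. Pdgfra was therefore lower in BMDMs, with no overlap (log2 fold change -12.21, standard error 0.17, adjusted p = 3.08e-15). Pdgfrb was at 1.43, 1.45 and 0.669 CPM in the BMDM libraries and 303, 338 and 349 CPM in the 3T3 libraries. Pdgfrb was lower in every BMDM library (log2 fold change -8.12, standard error 0.13, adjusted p = 7.79e-15). Thy1, a surface marker of fibroblasts, was at 0.130, 0 and 0 CPM in the BMDM libraries and 159.8, 147 and 149 CPM in the 3T3 libraries. Thy1 was 3658-fold higher in 3T3 cells, 95% counting interval 1012 to 30210.0. For all of these the groups were far apart. The collagen receptors Ddr1 (at least 1236-fold higher in 3T3 cells) and Ddr2 (log2 fold change -10.51), the oncostatin M receptor Osmr (log2 fold change -10.54) and the adhesion molecules Cdh11 (log2 fold change -9.41) and Ncam1 (log2 fold change -10.38) followed the same pattern. The members that went against the list's name were Eng, a TGF-beta co-receptor (56.6 ± 0.596 CPM in BMDMs and 1.402 ± 0.146 CPM in 3T3 cells; log2 fold change 5.31), the receptors Notch1 (167 ± 1.94 against 11.2 ± 2.56 CPM; log2 fold change 3.88), Tgfbr1 (276 ± 7.78 against 39.8 ± 3.36 CPM; log2 fold change 2.79), Lifr (124 ± 4.32 against 27.2 ± 1.898 CPM; log2 fold change 2.18) and Notch2 (509 ± 12.3 against 216 ± 41.1 CPM; log2 fold change 1.24). Fap, a protease known from activated fibroblasts, was low in both, at 0.722 ± 0.109 CPM in BMDMs and 0.843 ± 0.279 CPM in 3T3 cells (log2 fold change -0.20, standard error 0.30, adjusted p = 0.601).

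Integrins were divided evenly, with 8 of 23 subunits tested more than 2-fold higher on each side and a median log2 fold change of 0.04, or -0.23 with total counts. Several subunits of leukocyte integrins were on the BMDM side: Itgb2 was at 987, 983 and 997 CPM in the BMDM libraries and 5.44, 5.66 and 5.92 CPM in the 3T3 libraries. Itgb2 was therefore higher in BMDMs, with no overlap (log2 fold change 7.44, standard error 0.29, adjusted p = 2.4e-11). Itga4, Itgb7 and Itgal had log2 fold changes of 7.41, 6.88 and 4.41. Subunits of collagen and laminin receptors were divided: Itga11 was 1458-fold higher in 3T3 cells, interval 403 to 12042, and Itga7 and Itga3 had log2 fold changes of -6.15 and -5.84, whereas Itga6, of laminin receptors, and Itga1, of a collagen receptor, were higher in BMDMs, at 2.91 and 0.44. The shared fibronectin and vitronectin receptor subunits Itgb1 (661 ± 6.996 CPM in BMDMs and 687 ± 26.2 CPM in 3T3 cells; log2 fold change -0.05, standard error 0.048, adjusted p = 0.294), Itgav (148 ± 2.93 against 160.2 ± 12.4 CPM; log2 fold change -0.11, standard error 0.056, adjusted p = 0.0764) and Itga5 (138 ± 0.603 against 134 ± 1.71 CPM; log2 fold change 0.04, standard error 0.039, adjusted p = 0.406) did not pass either test. Among the 7 beta subunits compared as CPM per kilobase of exon (Itgb1, Itgb2, Itgb3, Itgb4, Itgb5, Itgb7 and Itgb8), Itgb2 held 44.4 ± 0.439% of the sum in BMDMs and 0.821 ± 0.0178% in 3T3 cells. Itgb1 held 22.2 ± 0.172% in BMDMs and 74.4 ± 1.13% in 3T3 cells, although its own level did not separate the groups.

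For 30 pairs of a ligand and its receptor the table was read for which partner each cell type expressed; levels of mRNA say nothing of secretion or binding. In 8 of the 30 pairs the ligand was more than 2-fold higher in 3T3 cells and the receptor in BMDMs. In 5 the ligand was on the BMDM side and the receptor on the 3T3 side, and in 3 both were on the same side. Several pairs share a ligand or a receptor, and the counts hold for this choice of pairs only. Csf1, which encodes macrophage colony-stimulating factor, was at 2.47, 3.39 and 2.43 CPM in the BMDM libraries and 379, 393 and 385 CPM in the 3T3 libraries. Csf1 was lower in every BMDM library (log2 fold change -7.12, standard error 0.14, adjusted p = 2.61e-14). Its receptor Csf1r was on the BMDM side. The second ligand of that receptor, Il34, was at 0 CPM in every BMDM library and 3.31, 3.81 and 2.696 CPM in the 3T3 libraries. Il34 was at least 53.9-fold higher in 3T3 cells. Cxcl12, a chemokine of stromal cells, was at 0.260, 0.121 and 0.426 CPM in the BMDM libraries and 223, 237 and 242 CPM in the 3T3 libraries. Cxcl12 was therefore lower in BMDMs, with no overlap (log2 fold change -9.73, standard error 0.13, adjusted p = 2.32e-15). Its receptor Cxcr4 was at 439.6 ± 7.27 CPM in BMDMs and 0.0829 ± 0.0538 CPM in 3T3 cells. Ccl7 (0.0418 ± 0.0363 CPM in BMDMs and 24.5 ± 4.62 CPM in 3T3 cells) and Ccl2 (1.03 ± 0.0634 against 7.198 ± 2.24 CPM) were on the 3T3 side, and their receptor Ccr2 was on the BMDM side at 535 ± 19.1 against 0.411 ± 0.280 CPM. Cx3cl1 and Cx3cr1, Lif and Lifr, and Thbs1 and Cd36 had the same arrangement.

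In the opposite direction, Pdgfb was at 132, 136 and 137 CPM in the BMDM libraries and 0, 0 and 0.106 CPM in the 3T3 libraries. Pdgfb was 4461-fold higher in BMDMs, 95% counting interval 1234 to 36844. Its receptor Pdgfrb was more than 2-fold higher in 3T3 cells. Igf1 was at 612, 579.9 and 576 CPM in the BMDM libraries and 18.6, 17.4 and 20.3 CPM in the 3T3 libraries. Igf1 was higher in every BMDM library (log2 fold change 4.98, standard error 0.11, adjusted p = 9.74e-14). Igf1r was at 32.1 ± 1.23 CPM in BMDMs and 199.9 ± 30.99 CPM in 3T3 cells. Osm, Il1b and Tnfsf12 were the other ligands on the BMDM side with receptors on the 3T3 side, at mean levels of 5.28, 2.36 and 86.7 CPM in BMDMs. Osm and Il1b were thus far less abundant than Igf1 in these cultures. The TGF-beta genes differed by isoform: Tgfb1 was at 349 ± 7.64 CPM in BMDMs and 22.2 ± 1.46 CPM in 3T3 cells, Tgfb2 at 0.0418 ± 0.0363 against 30.9 ± 1.67 CPM and Tgfb3 at 0.104 ± 0.0376 against 79.7 ± 1.65 CPM. As CPM per kilobase of exon, Tgfb1 held 99.9 ± 0.0257% of the sum of the 3 isoforms in BMDMs and Tgfb3 held 70.7 ± 1.36% in 3T3 cells. Tgfbr2, a receptor of all 3 ligands, differed little, at 274 ± 8.796 CPM in BMDMs and 232 ± 18.7 CPM in 3T3 cells (log2 fold change 0.24, standard error 0.06, adjusted p = 0.00219), and its direction turned with total-count scaling. Spp1, which encodes osteopontin, a secreted matrix protein that binds integrins and CD44, was high in both cell types, at 1064, 949 and 1030.0 CPM in the BMDM libraries and 958, 761 and 725 CPM in the 3T3 libraries. Spp1 overlapped between the groups (log2 fold change 0.32, standard error 0.14, adjusted p = 0.055). 3T3 replicate 1 lay above BMDM replicate 2. Without 3T3 replicate 1, the log2 fold change was 0.44 and passed the threshold.

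Collagen genes were mostly on the 3T3 side. Of 44 collagen genes, 31 were tested, 24 were more than 2-fold higher in 3T3 cells and 2 were more than 2-fold higher in BMDMs (median log2 fold change -7.33, or -6.10 with bounds). All collagen genes together summed to 23000 to 25600 CPM in 3T3 cells and to 144 to 154 CPM in BMDMs. Col1a1, the alpha 1 chain of type I collagen (ENSMUSG00000001506.10, chromosome 11, 94936224 to 94953042), was at 0.390, 1.15 and 0.365 CPM in the BMDM libraries and 4083, 4229 and 4627 CPM in the 3T3 libraries. Col1a1 was therefore lower in BMDMs, with no overlap (log2 fold change -12.70, standard error 0.21, adjusted p = 6.98e-15). Col1a2 was at 0.714, 1.51 and 0.365 CPM in the BMDM libraries and 8196, 8247 and 8707 CPM in the 3T3 libraries. Col1a2 was lower in every BMDM library (log2 fold change -13.23, standard error 0.24, adjusted p = 1.92e-14). Col3a1 was at 0.454, 0.605 and 0.0608 CPM in the BMDM libraries and 4219, 4199 and 4597 CPM in the 3T3 libraries. Col3a1 was therefore lower in BMDMs, with no overlap (log2 fold change -13.48, standard error 0.25, adjusted p = 2.13e-14). The groups were separated by more than 1000-fold in mean CPM for each of these chains. Chains of other types were on the 3T3 side as well: Col5a2 was at 0.142 ± 0.126 CPM in BMDMs and 745 ± 39.8 CPM in 3T3 cells, Col6a1 at 0.327 ± 0.352 against 1822 ± 78.6 CPM and Col4a1 at 1.96 ± 0.485 against 316 ± 28.4 CPM. The BMDM side held Col18a1, whose C-terminal fragment is endostatin, at 108, 109.8 and 111 CPM in the BMDM libraries and 10.2, 10.6 and 11.7 CPM in the 3T3 libraries. Col18a1 was higher in every BMDM library (log2 fold change 3.34, standard error 0.065, adjusted p = 3.27e-14). Col23a1, a membrane collagen, was also there, at 0.7998 ± 0.364 CPM in BMDMs and 0.141 ± 0.0614 CPM in 3T3 cells (log2 fold change 2.50, standard error 0.47, adjusted p = 0.000249). Col18a1 accounted for most of the collagen CPM in BMDMs.

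The other matrix proteins followed the collagens. Of 42 glycoproteins and proteoglycans, 40 were tested, 36 were more than 2-fold higher in 3T3 cells and 2 in BMDMs (median log2 fold change -9.0, or -8.08 with bounds). Fn1, which encodes fibronectin, was at 6.75, 7.57 and 5.597 CPM in the BMDM libraries and 3248, 5049.8 and 5391 CPM in the 3T3 libraries. Fn1 was therefore lower in BMDMs, with no overlap (log2 fold change -9.42, standard error 0.23, adjusted p = 2.04e-13). The lowest of these 3T3 values was that of replicate 1. The collagen-binding proteoglycans decorin (Dcn, 0.121 ± 0.210 CPM in BMDMs and 979 ± 61.6 CPM in 3T3 cells) and biglycan (Bgn, 0.622 ± 0.283 against 1565 ± 65.5 CPM) and the thrombospondin Thbs2 (0.0203 ± 0.0351 against 1194 ± 141 CPM) were near 0 in BMDMs. Lum, which encodes lumican, was at 0 in all BMDM libraries and at least 3195-fold higher in 3T3 cells. Eln, which encodes elastin, was low in both groups, at 0.123 ± 0.0588 CPM in BMDMs and 1.06 ± 0.321 CPM in 3T3 cells. Tgfbi, a secreted protein that binds collagen and integrins, was an exception, at 1216, 1199 and 1204 CPM in the BMDM libraries and 18.2, 17.3 and 16.7 CPM in the 3T3 libraries. Tgfbi was higher in every BMDM library (log2 fold change 6.12, standard error 0.15, adjusted p = 2.45e-13). Ecm1 was another, at 88.5 ± 1.6 CPM in BMDMs and 28.99 ± 2.41 CPM in 3T3 cells (log2 fold change 1.61).

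Enzymes that mature collagen were mostly on the 3T3 side, with 14 of 19 tested more than 2-fold higher there and 1 more than 2-fold higher in BMDMs (median log2 fold change -3.11). Lox, the lysyl oxidase that crosslinks collagen and elastin, was at 2.73, 2.78 and 1.52 CPM in the BMDM libraries and 6584, 7077 and 7214 CPM in the 3T3 libraries. Lox was therefore lower in BMDMs, with no overlap (log2 fold change -11.54, standard error 0.18, adjusted p = 5.26e-15). Serpinh1, the collagen chaperone HSP47, was at 0.130, 0.242 and 0 CPM in the BMDM libraries and 809.9, 761 and 770.1 CPM in the 3T3 libraries. Serpinh1 was lower in every BMDM library (log2 fold change -12.54, standard error 0.17, adjusted p = 2.35e-15). P4hb, Colgalt1 and Plod3, which also act on collagen chains, did not pass the test against 2-fold: P4hb was at 465 ± 8.66 CPM in BMDMs and 772 ± 48.7 CPM in 3T3 cells, Colgalt1 at 294 ± 7.44 against 163 ± 4.35 CPM and Plod3 at 207 ± 2.95 against 156 ± 5.53 CPM. Plod1, a lysyl hydroxylase, was the member on the BMDM side, at 194 ± 9.304 CPM in BMDMs and 58.7 ± 1.57 CPM in 3T3 cells (log2 fold change 1.72). Loxl2 was near 1 CPM in both, at 1.43 ± 0.193 CPM in BMDMs and 1.45 ± 0.223 CPM in 3T3 cells.

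Proteases that cut the matrix were split by enzyme. Of 27 tested, 7 were more than 2-fold higher in BMDMs and 16 in 3T3 cells (median log2 fold change -2.49). Mmp12, the macrophage elastase, was at 563, 513 and 521 CPM in the BMDM libraries and 3.97, 6.86 and 5.13 CPM in the 3T3 libraries. Mmp12 was therefore higher in BMDMs, with no overlap (log2 fold change 6.62, standard error 0.23, adjusted p = 8.4e-12). Mmp8, a collagenase also known from neutrophils, was at 131, 126 and 128 CPM in the BMDM libraries and 0, 0.0725 and 0 CPM in the 3T3 libraries. Mmp8 was 4243-fold higher in BMDMs, 95% counting interval 1174 to 35043. Mmp13 was at 29.6 ± 1.21 CPM in BMDMs and 0.0121 ± 0.0209 CPM in 3T3 cells. Mmp2, a gelatinase, was at 0.844, 0.424 and 0.791 CPM in the BMDM libraries and 942, 929.6 and 945 CPM in the 3T3 libraries. Mmp2 was lower in every BMDM library (log2 fold change -10.41, standard error 0.13, adjusted p = 1.84e-15). Its membrane activator Mmp14 was at 22.2 ± 1.72 CPM in BMDMs and 478 ± 7.69 CPM in 3T3 cells. The aggrecanase Adamts5 and the inhibitor Timp3 were 3T3 genes as well: Adamts5 was at 0.0202 ± 0.0350 CPM in BMDMs and 405 ± 29.9 CPM in 3T3 cells and Timp3 at 0.327 ± 0.210 against 593 ± 50.6 CPM. Mmp9, often taken as a macrophage gelatinase, was low, at 0.315 ± 0.180 CPM in BMDMs and 9.43 ± 0.864 CPM in 3T3 cells (log2 fold change -4.89). Mmp19 and Plau did not pass the difference test, at 70.6 ± 1.02 CPM in BMDMs and 76.9 ± 2.52 CPM in 3T3 cells and 29.6 ± 2.68 against 35.2 ± 1.16 CPM.

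Contractile and actin-bundling genes were on the 3T3 side in 21 of 26 cases and on the BMDM side in 1 (median log2 fold change -3.85, or -3.68 with bounds). Acta2, the smooth muscle actin of myofibroblasts (ENSMUSG00000035783.9, chromosome 19, 34241090 to 34255590), was at 0.584, 0.545 and 0.791 CPM in the BMDM libraries and 441, 392 and 402 CPM in the 3T3 libraries. Acta2 was therefore lower in BMDMs, with no overlap (log2 fold change -9.31, standard error 0.11, adjusted p = 1.42e-15). Flnc, a filamin known from muscle, was at 0.121 ± 0.122 CPM in BMDMs and 505 ± 93.6 CPM in 3T3 cells, Cald1, which encodes caldesmon, at 0.649 ± 0.369 against 695 ± 7.26 CPM, and Tagln, which encodes transgelin, at 1.82 ± 0.493 against 46.3 ± 2.99 CPM. The general cytoskeleton did not separate in this way: Vim, the intermediate filament vimentin, was at 2518, 2561 and 2618 CPM in the BMDM libraries and 3143, 2708 and 2594 CPM in the 3T3 libraries. Vim overlapped between the groups (log2 fold change -0.13, standard error 0.069, adjusted p = 0.0869). Flna and Myh9 had log2 fold changes of -0.25 and -0.57. Csrp1, a LIM protein, was the member on the BMDM side, at 83.97 ± 1.21 CPM in BMDMs and 33.5 ± 3.04 CPM in 3T3 cells (log2 fold change 1.33); with total-count scaling no member was.

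Promoters were searched on both strands for the letters of 5 motifs, among them GGAATG, the core of the TEAD motif, since the TEAD factors were on the 3T3 side. The contractile list is described here because its share of GGAATG stood out once the shares were seen. RefSeq promoters (GRCm38.p6) were found for 23 of the 27 listed genes. Of these 23 genes, 10 (43.5%) held the letters within 250 bases before a start site. A gene counted if any of its listed promoters held them. Genes with several promoters thus had more chances, and the shares were not adjusted for this. Over all 27025 genes in the promoter table the share was 14.4%. Among the 8 other lists with promoters for at least 80% of their members, it ran from 0 to 18.5%. The contractile promoters also held the GC box GGGCGG more often, in 73.9% of genes against 35.4% of all genes in the table, which include many non-coding ones, but so did most of the other lists (34.4 to 100%). The letters were searched with no other TEAD form and may overlap the motifs of other factors. Of the 10 genes with a match, 8 were more than 2-fold higher in 3T3 cells, as were 9 of the 13 without one. A match describes the letters only. Shown are the 250 bases before the start site of 4 genes with a match that were more than 2-fold higher in 3T3 cells, 5′ to 3′ on the strand of the gene, with the match in capitals (GGAATG, or its reverse complement CATTCC). The Acta2 bases lie at chr19:34255374-34255623, minus strand, those of Cald1 at chr6:34598254-34598503, plus strand, those of Flnc at chr6:29433006-29433255, plus strand and those of Tpm1, which encodes an alpha tropomyosin, at chr9:67049214-67049463, minus strand.
Acta2: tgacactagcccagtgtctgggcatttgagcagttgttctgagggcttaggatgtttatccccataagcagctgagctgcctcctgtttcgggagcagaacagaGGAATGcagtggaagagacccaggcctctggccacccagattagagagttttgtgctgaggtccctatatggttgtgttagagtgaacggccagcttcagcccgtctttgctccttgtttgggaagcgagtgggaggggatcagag
Cald1: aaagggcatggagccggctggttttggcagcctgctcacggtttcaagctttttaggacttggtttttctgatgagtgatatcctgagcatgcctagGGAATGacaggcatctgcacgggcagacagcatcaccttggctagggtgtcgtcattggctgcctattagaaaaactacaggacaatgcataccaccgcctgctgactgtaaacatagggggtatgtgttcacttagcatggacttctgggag
Flnc: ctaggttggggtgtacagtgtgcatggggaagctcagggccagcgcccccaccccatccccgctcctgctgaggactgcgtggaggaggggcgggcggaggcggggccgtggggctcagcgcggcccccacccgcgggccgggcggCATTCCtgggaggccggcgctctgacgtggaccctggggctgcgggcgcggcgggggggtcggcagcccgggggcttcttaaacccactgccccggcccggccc
Tpm1: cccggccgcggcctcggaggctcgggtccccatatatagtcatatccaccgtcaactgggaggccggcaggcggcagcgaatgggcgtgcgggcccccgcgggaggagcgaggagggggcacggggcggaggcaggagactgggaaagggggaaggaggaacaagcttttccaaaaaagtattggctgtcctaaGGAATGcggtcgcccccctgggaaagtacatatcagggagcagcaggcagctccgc
The match began 146 bases before the start in Acta2, 153 in Cald1, 104 in Flnc and 56 in Tpm1. In Flnc it lay on the opposite strand. Tpm1 itself was at 77.1 ± 3.55 CPM in BMDMs and 447 ± 14.3 CPM in 3T3 cells (log2 fold change -2.53).

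The degradative machinery marked BMDMs. Of 37 lysosomal genes, 32 were more than 2-fold higher in BMDMs and none was in 3T3 cells (median log2 fold change 3.42), and the list summed to 76400 to 78500 CPM in BMDMs against 6810 to 7380 CPM in 3T3 cells. Ctss, a cathepsin of antigen-presenting cells, was at 6701, 6349.7 and 6499.5 CPM in the BMDM libraries and 0.865, 1.31 and 1.16 CPM in the 3T3 libraries. Ctss was higher in every BMDM library (log2 fold change 12.49, standard error 0.64, adjusted p = 4.74e-10). Ctsb was at 14458, 14131 and 14217 CPM in the BMDM libraries and 464, 433 and 436 CPM in the 3T3 libraries. Ctsb was therefore higher in BMDMs, with no overlap (log2 fold change 5.01, standard error 0.12, adjusted p = 2.88e-13). Gpnmb, a glycoprotein of lipid-laden and lysosome-rich macrophages, was at 9292, 9019.8 and 9036 CPM in the BMDM libraries and 11.5, 15.99 and 13.2 CPM in the 3T3 libraries. Gpnmb was higher in every BMDM library (log2 fold change 9.38, standard error 0.49, adjusted p = 4.99e-10). The housekeeping lysosome was present in both: Lamp2 was at 953 ± 11.01 CPM in BMDMs and 409 ± 5.88 CPM in 3T3 cells, Npc2 at 1351 ± 20.5 against 375 ± 43.3 CPM and Cd63 at 854 ± 6.005 against 673 ± 75.7 CPM. Ctsl, another cathepsin, differed by less than 2-fold, at 1139 ± 21.3 CPM in BMDMs and 698 ± 39.5 CPM in 3T3 cells (log2 fold change 0.71). Tfeb, a master regulator of lysosomal genes, was at 75.9 ± 2.19 CPM in BMDMs and 10.2 ± 0.987 CPM in 3T3 cells (log2 fold change 2.90). Gaa, which degrades lysosomal glycogen, was higher in 3T3 cells in the difference test, at 148 ± 1.31 CPM in BMDMs and 278 ± 14.9 CPM in 3T3 cells (log2 fold change -0.92).

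Sensors and effectors of innate immunity followed, with 25 of 28 genes more than 2-fold higher in BMDMs and none in 3T3 cells (median log2 fold change 4.97). Tlr8, a sensor of RNA in endosomes, was at 321, 316 and 311 CPM in the BMDM libraries and 0, 0.0363 and 0 CPM in the 3T3 libraries. Tlr8 was 20895-fold higher in BMDMs, 95% counting interval 3749.6 to 825340. Tlr13 was at 453, 446 and 445 CPM in the BMDM libraries and 0.0509, 0.109 and 0.159 CPM in the 3T3 libraries. Tlr13 was therefore higher in BMDMs, with no overlap (log2 fold change 11.96, standard error 0.50, adjusted p = 4.81e-11). The endosomal receptors Tlr7 (log2 fold change 10.85) and Tlr9 (2591-fold higher in BMDMs, interval 886 to 12566) were nearly absent from 3T3 cells as well. Tlr4, the receptor for lipopolysaccharide, and Tlr2, a receptor for bacterial lipoproteins, were detected in both cell types: Tlr4 was at 167 ± 6.04 CPM in BMDMs and 41.5 ± 3.85 CPM in 3T3 cells and Tlr2 at 187 ± 8.53 against 21.3 ± 2.69 CPM. Cybb, the catalytic subunit of the phagocyte NADPH oxidase, was at 2036, 2014 and 1893 CPM in the BMDM libraries and 0.102, 0.254 and 0.423 CPM in the 3T3 libraries. Cybb was higher in every BMDM library (log2 fold change 12.87, standard error 0.52, adjusted p = 3.74e-11). Nox4, the form of non-phagocytic cells, was near 1 CPM in both (1.18 ± 0.553 CPM in BMDMs and 1.67 ± 0.395 CPM in 3T3 cells). Nlrp3, an inflammasome sensor, was at 74.99 ± 2.28 CPM in BMDMs and 0.0649 ± 0.0831 CPM in 3T3 cells, and Casp4 did not pass the test against 2-fold (14.04 ± 1.16 against 16.7 ± 0.226 CPM).

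Complement genes were divided between the cells. Of 16 complement and lysozyme genes tested, 10 were more than 2-fold higher in BMDMs and 5 in 3T3 cells. C1qb, a chain of the recognition molecule C1q, was at 1295, 1320.4 and 1352 CPM in the BMDM libraries and 0.102, 0.290 and 0.159 CPM in the 3T3 libraries. C1qb was therefore higher in BMDMs, with no overlap (log2 fold change 12.67, standard error 0.65, adjusted p = 4.58e-10). C1s1, a protease of the complex that C1q starts, was at 0.0649, 0.242 and 0.0608 CPM in the BMDM libraries and 572, 585 and 593 CPM in the 3T3 libraries. C1s1 was lower in every BMDM library (log2 fold change -12.12, standard error 0.14, adjusted p = 1.64e-15). C1ra, the other protease of the complex, was at 8.66 ± 1.296 CPM in BMDMs and 196 ± 2.798 CPM in 3T3 cells (log2 fold change -4.49). The parts of the C1 complex were thus higher in different cells, although C1ra was also detected in BMDMs. Lyz2, the lysozyme gene that carries the Cre insertion in these donors, was at 16760.0, 15938 and 16572 CPM in the BMDM libraries and 3.71, 3.08 and 2.33 CPM in the 3T3 libraries. Lyz2 was therefore higher in BMDMs, with no overlap (log2 fold change 12.39, standard error 0.62, adjusted p = 3.58e-10). Lyz2 and its neighbour Lyz1 (at least 1568-fold higher in BMDMs) are close copies, so the split of reads between them is uncertain.

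**Figure D3:**
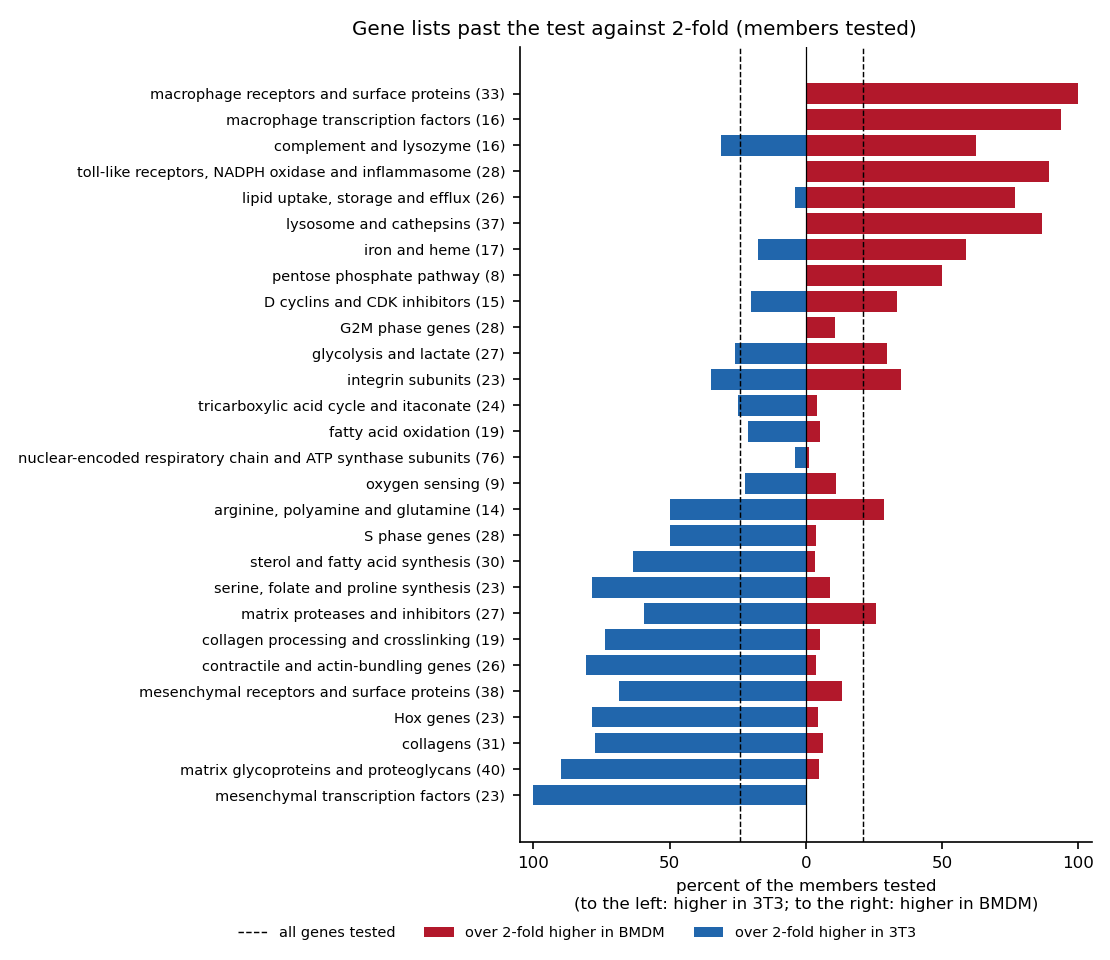
Percent of the tested members of 28 gene lists that were more than 2-fold higher in WT BMDMs (red, to the right) or in 3T3 cells in WT medium (blue, to the left), with the number tested in brackets and dashed lines at the shares over all genes tested (20.9% and 24.2%). Macrophage receptors reach 100% to the right and mesenchymal transcription factors 100% to the left, while the respiratory chain lies near 0 on both.

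Of 27 glycolytic genes, 8 were more than 2-fold higher in BMDMs and 7 in 3T3 cells, near the background on both sides (median log2 fold change 0.39, or 0.12 with total counts). Hk3, a hexokinase of blood cells, was at 280.1, 286 and 296 CPM in the BMDM libraries and 0.0509, 0.109 and 0.264 CPM in the 3T3 libraries. Hk3 was higher in every BMDM library (log2 fold change 10.97, standard error 0.37, adjusted p = 5.77e-12). Hk3 held 74.6 ± 0.699% of the CPM per kilobase of Hk1, Hk2 and Hk3 in BMDMs against 0.228 ± 0.172% in 3T3 cells. Pfkp, the platelet form of phosphofructokinase, held 30.6 ± 0.651% of its family per kilobase in BMDMs and 2.36 ± 0.172% in 3T3 cells. Among glucose carriers per kilobase, Slc2a6 held 67.5 ± 1.54% in BMDMs and Slc2a1 held 98.1 ± 0.0428% in 3T3 cells.

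Ldhb, the subunit of heart-type lactate dehydrogenase, was at 8.504, 9.38 and 8.58 CPM in the BMDM libraries and 164, 138 and 136 CPM in the 3T3 libraries. Ldhb was therefore lower in BMDMs, with no overlap (log2 fold change -4.05, standard error 0.085, adjusted p = 6.3e-14). Ldha was at 309.7 ± 3.59 CPM in BMDMs and 339.6 ± 32.4 CPM in 3T3 cells (log2 fold change -0.13, standard error 0.064, adjusted p = 0.0683) and did not pass. Slc16a3, the carrier MCT4, was at 44.9, 39.95 and 42.3 CPM in the BMDM libraries and 1.27, 1.52 and 0.581 CPM in the 3T3 libraries. Slc16a3 was higher in every BMDM library (log2 fold change 5.17, standard error 0.36, adjusted p = 1.43e-08). Slc16a1, the carrier MCT1, was at 8.83, 9.63 and 9.92 CPM in the BMDM libraries and 137, 129 and 127 CPM in the 3T3 libraries. Slc16a1 was therefore lower in BMDMs, with no overlap (log2 fold change -3.79, standard error 0.058, adjusted p = 4.6e-15). Per kilobase, Slc16a3 held 78.8 ± 1.81% of the pair in BMDMs and 0.706 ± 0.300% in 3T3 cells. Pfkfb3 (log2 fold change 2.97) and Pfkfb4 (log2 fold change 3.53), which set the level of a phosphofructokinase activator, were both on the BMDM side. These families of isoenzymes and carriers were picked with the values in view.

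The pentose phosphate pathway leaned to BMDMs, with 4 of 8 genes more than 2-fold higher there and none in 3T3 cells (median log2 fold change 0.97). The 4 were Taldo1 (323 ± 9.81 CPM in BMDMs and 71.3 ± 8.48 CPM in 3T3 cells), G6pdx, the entry enzyme that makes NADPH (295 ± 10.9 against 69.7 ± 2.004 CPM), Pgd (486 ± 6.99 against 121 ± 9.28 CPM) and Tkt (463 ± 5.34 against 162 ± 13.6 CPM). Of 24 genes of the tricarboxylic acid cycle, 1 was more than 2-fold higher in BMDMs and 6 in 3T3 cells (median -0.04). The 1 gene was Acod1, which makes itaconate in myeloid cells, at 22.4, 19.7 and 17.9 CPM in the BMDM libraries and 0, 0.0363 and 0 CPM in the 3T3 libraries. Acod1 was 1319-fold higher in BMDMs, 95% counting interval 236 to 52134. Pcx, the carboxylase that refills the cycle, was at 4.99 ± 0.876 CPM in BMDMs and 42.5 ± 0.491 CPM in 3T3 cells and Idh2 at 47.9 ± 2.06 against 227 ± 19.2 CPM. Fatty acid oxidation genes (1 and 4 of 19, median -0.07) and the 76 nuclear-encoded subunits of the respiratory chain and ATP synthase (1 and 3, median -0.21) were divided little, with 14 and 72 members that did not pass the test against 2-fold. With total counts their medians were -0.34 and -0.48, and 8 respiratory chain genes were more than 2-fold higher in 3T3 cells.

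**Figure D4:**
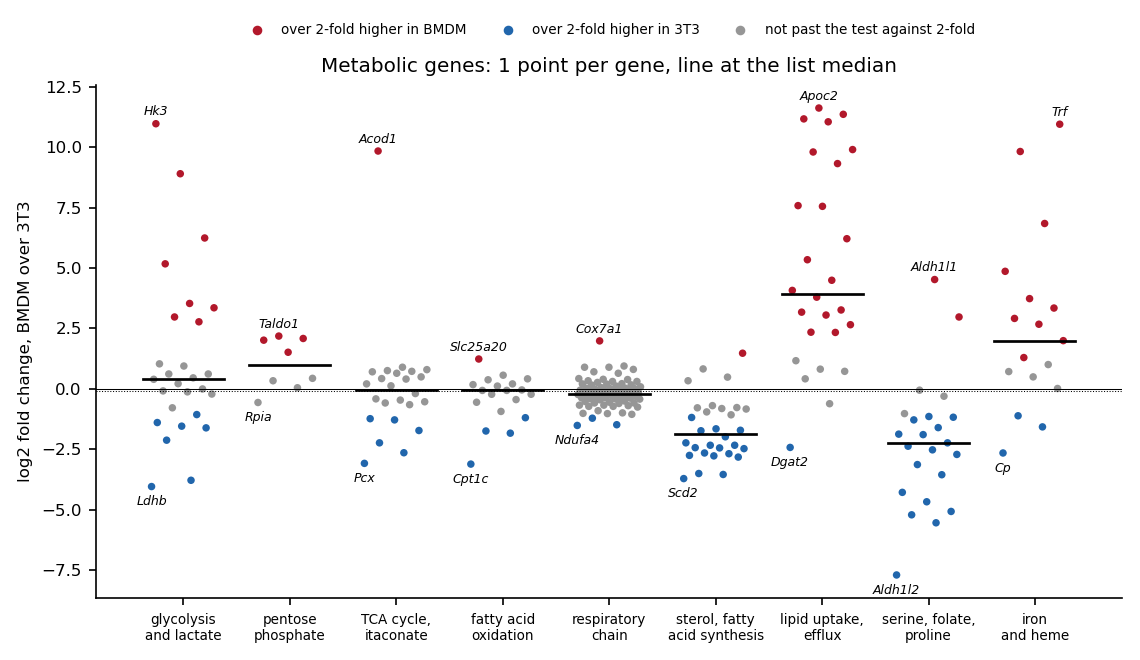
Log2 fold change, WT BMDM over 3T3 cells in WT medium, of each tested gene of 9 metabolic lists, with a line at the median of each list and genes at the ends named. Red and blue points passed the test against 2-fold. Lipid uptake and efflux lies above 0 and sterol synthesis and serine, folate and proline synthesis lie below it.

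Lipid genes split into synthesis and handling. Of 30 sterol and fatty acid synthesis genes, 19 were more than 2-fold higher in 3T3 cells and 1 in BMDMs (median log2 fold change -1.87). Sqle, which encodes squalene epoxidase, was at 59.7, 62.6 and 60.8 CPM in the BMDM libraries and 446, 436 and 417 CPM in the 3T3 libraries. Sqle was lower in every BMDM library (log2 fold change -2.83, standard error 0.05, adjusted p = 1.45e-14). Scd2, a desaturase, was at 182, 188 and 178 CPM in the BMDM libraries and 2315, 2449.7 and 2441 CPM in the 3T3 libraries. Scd2 was therefore lower in BMDMs, with no overlap (log2 fold change -3.72, standard error 0.062, adjusted p = 8.63e-15). The media also differed in serum, with 10% FCS for BMDMs and 2% for 3T3 cells, and the part of serum in these levels was not tested.

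Genes of lipid uptake, storage and efflux were on the other side, with 20 of 26 more than 2-fold higher in BMDMs and 1 in 3T3 cells (median log2 fold change 3.93). Apoe, the apolipoprotein that macrophages secrete, was at 4541, 4483 and 4674 CPM in the BMDM libraries and 5.8, 4.46 and 4.12 CPM in the 3T3 libraries. Apoe was higher in every BMDM library (log2 fold change 9.90, standard error 0.28, adjusted p = 1.08e-12). Abcg1, a cholesterol exporter, was at 342, 334 and 332 CPM in the BMDM libraries and 0.102, 0.145 and 0.106 CPM in the 3T3 libraries. Abcg1 was therefore higher in BMDMs, with no overlap (log2 fold change 11.36, standard error 0.36, adjusted p = 2.83e-12). Abca1, which loads apolipoprotein A-I, was at 491 ± 13.8 CPM in BMDMs and 51.4 ± 8.73 CPM in 3T3 cells. Lpl, the lipase that releases fatty acids from lipoproteins, was at 1846 ± 32.7 CPM in BMDMs and 223 ± 9.72 CPM in 3T3 cells, and Pparg, a fatty acid-sensing nuclear receptor, was at 42.98 ± 1.103 against 0.0649 ± 0.0831 CPM. Lrp1, a receptor for apolipoprotein E, was high in both, at 2762, 2799 and 2706 CPM in the BMDM libraries and 856, 1356 and 1479 CPM in the 3T3 libraries. Lrp1 was higher in every BMDM library (log2 fold change 1.16, standard error 0.15, adjusted p = 5.74e-06). This difference did not pass the test against 2-fold. Dgat2, which makes triglyceride, was the gene on the 3T3 side, at 0.871 ± 0.178 CPM in BMDMs and 4.74 ± 0.391 CPM in 3T3 cells (log2 fold change -2.43).

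Of 23 genes listed for serine, folate and proline synthesis, 18 were more than 2-fold higher in 3T3 cells and 2 in BMDMs (median log2 fold change -2.24). Psat1, a serine synthesis enzyme, was at 11.6, 12.5 and 12.5 CPM in the BMDM libraries and 441, 399.9 and 401 CPM in the 3T3 libraries. Psat1 was therefore lower in BMDMs, with no overlap (log2 fold change -5.08, standard error 0.067, adjusted p = 2.21e-15). Phgdh, the first enzyme of that path, was at 10.3 ± 1.62 CPM in BMDMs and 266 ± 34.6 CPM in 3T3 cells. Aldh1l2, the mitochondrial formyltetrahydrofolate dehydrogenase, was at 1.88, 1.63 and 1.399 CPM in the BMDM libraries and 293, 354 and 384 CPM in the 3T3 libraries. Aldh1l2 was lower in every BMDM library (log2 fold change -7.71, standard error 0.13, adjusted p = 1.2e-14). Its cytosolic relative Aldh1l1 was the reverse, at 26.8 ± 2.55 CPM in BMDMs and 1.15 ± 0.106 CPM in 3T3 cells (log2 fold change 4.52), together with Prodh, which degrades proline (5.73 ± 0.704 against 0.721 ± 0.0528 CPM). Among arginine, polyamine and glutamine genes, 4 of 14 were more than 2-fold higher in BMDMs and 7 in 3T3 cells. Glul, which makes glutamine, was at 281 ± 8.24 CPM in BMDMs and 12.7 ± 0.537 CPM in 3T3 cells, and Odc1, which starts polyamine synthesis, at 21.9 ± 2.07 against 175 ± 12.05 CPM. Nos2, often used to describe macrophage activation, did not pass the filter and was at 0.5605 ± 0.120 CPM in BMDMs and 0 CPM in 3T3 cells.

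Iron genes were mostly on the BMDM side, with 10 of 17 more than 2-fold higher there and 3 in 3T3 cells (median log2 fold change 1.99). Fth1, the ferritin heavy chain, was at 16741, 15910.0 and 16632 CPM in the BMDM libraries and 1486, 1137 and 1096 CPM in the 3T3 libraries. Fth1 was therefore higher in BMDMs, with no overlap (log2 fold change 3.73, standard error 0.12, adjusted p = 3.71e-12). Slc11a1, the phagosomal metal transporter NRAMP1, was at 447, 423 and 457 CPM in the BMDM libraries and 0.254, 0.508 and 0.687 CPM in the 3T3 libraries. Slc11a1 was higher in every BMDM library (log2 fold change 9.82, standard error 0.29, adjusted p = 1.53e-12). Slc40a1, the iron exporter ferroportin, was at 117 ± 3.52 CPM in BMDMs and 4.02 ± 0.255 CPM in 3T3 cells. Tfrc, which takes iron up, was on the 3T3 side, at 27.6 ± 1.57 CPM in BMDMs and 60.1 ± 2.88 CPM in 3T3 cells (log2 fold change -1.12), with Cp and Steap3.

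Cell cycle genes did not form a single pattern. Of 28 S phase genes, 14 were more than 2-fold higher in 3T3 cells and 1 in BMDMs (median log2 fold change -1.04). Of 28 G2M genes, 3 were more than 2-fold higher in BMDMs and none in 3T3 cells (median 0.43, or 0.16 with total counts). These 3 genes were 10.7% of the list, below the 20.9% of all genes tested, and with total counts 2 passed. In the difference test 21 G2M genes were higher in BMDMs and 3 in 3T3 cells, or 14 and 7 with total counts. Mcm2, a helicase subunit, was at 10.3 ± 0.0801 CPM in BMDMs and 69.6 ± 2.301 CPM in 3T3 cells, and Ccne1, which encodes cyclin E1, at 2.06 ± 0.475 against 14.2 ± 0.939 CPM. Mki67 was at 337, 364 and 354 CPM in the BMDM libraries and 97.7, 147 and 140.0 CPM in the 3T3 libraries. Mki67 was therefore higher in BMDMs, with no overlap (log2 fold change 1.45, standard error 0.12, adjusted p = 9.91e-08). Ccnb2, which encodes cyclin B2, was at 52.5 ± 2.26 CPM in BMDMs and 7.195 ± 0.835 CPM in 3T3 cells. Without 3T3 replicate 1, 5 G2M genes were more than 2-fold higher in BMDMs. The D cyclins differed by gene: Ccnd2 was at 2.99 ± 0.642 CPM in BMDMs and 309 ± 29.7 CPM in 3T3 cells, Ccnd1 at 12.95 ± 2.22 against 98.4 ± 4.53 CPM and Ccnd3 at 72.8 ± 2.22 against 128 ± 6.08 CPM. Per kilobase of exon, Ccnd3 held 73.0 ± 3.65% of the 3 D cyclins in BMDMs and 21.5 ± 2.09% in 3T3 cells. Cdkn2a, a tumour suppressor locus that NIH/3T3 cells are known to have lost, was at 0.519, 0.242 and 0.365 CPM in the BMDM libraries and 0 CPM in every 3T3 library and did not pass the filter. Its neighbour Cdkn2b was likewise at 0 in every 3T3 library, at 0.306 ± 0.156 CPM in BMDMs and 0 CPM in 3T3 cells.

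Of 10 oxygen-sensing genes, the subject of the study, 9 were tested and Hif3a did not pass the filter; 1 was more than 2-fold higher in BMDMs and 2 in 3T3 cells. Egln1, which encodes PHD2 (ENSMUSG00000031987.6, chromosome 8, 124908587 to 124949324), was at 55.8, 54.7 and 55.5 CPM in the BMDM libraries and 54.9, 48.8 and 48.2 CPM in the 3T3 libraries. Egln1 overlapped between the groups (log2 fold change 0.13, standard error 0.053, adjusted p = 0.036). This small difference lost significance in most alternatives and turned direction with total-count scaling. Egln2, which encodes PHD1, was at 48.2, 50.1 and 50.7 CPM in the BMDM libraries and 59.98, 50.3 and 46.5 CPM in the 3T3 libraries. Egln2 overlapped between the groups (log2 fold change -0.07, standard error 0.08, adjusted p = 0.411). Egln3, which encodes PHD3, was at 4.22, 4.601 and 4.14 CPM in the BMDM libraries and 8.09, 6.67 and 6.61 CPM in the 3T3 libraries. Egln3 was lower in every BMDM library (log2 fold change -0.72, standard error 0.11, adjusted p = 2.9e-05). Per kilobase of exon, Egln1, Egln2 and Egln3 held 44.3 ± 0.835, 51.0 ± 0.786 and 4.67 ± 0.271% of their sum in BMDMs and 39.9 ± 1.40, 52.6 ± 1.40 and 7.55 ± 0.159% in 3T3 cells. Hif1a, which encodes HIF-1 alpha, was at 115, 111 and 113 CPM in the BMDM libraries and 243, 251 and 258 CPM in the 3T3 libraries. Hif1a was therefore lower in BMDMs, with no overlap (log2 fold change -1.15, standard error 0.041, adjusted p = 9.92e-12). Epas1, which encodes HIF-2 alpha, was at 7.14, 7.87 and 5.78 CPM in the BMDM libraries and 1.02, 0.5803 and 0.899 CPM in the 3T3 libraries. Epas1 was higher in every BMDM library (log2 fold change 3.09, standard error 0.19, adjusted p = 3.58e-09). The HIF partner Arnt was at 92.4 ± 2.31 CPM in BMDMs and 119 ± 12.01 CPM in 3T3 cells, and its relative Arnt2 at 0.347 ± 0.242 against 79.7 ± 10.4 CPM (log2 fold change -7.80).

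The cells were also compared over 27 pairs of related genes, most with a first member known from blood cells and a second in wider use. In 25 pairs the first gene was more than 2-fold higher in BMDMs. In 12 of them the second was also more than 2-fold higher in 3T3 cells. Fermt3, the kindlin of blood cells, was at 329, 333 and 342 CPM in the BMDM libraries and 1.53, 1.67 and 1.37 CPM in the 3T3 libraries. Fermt3 was therefore higher in BMDMs, with no overlap (log2 fold change 7.76, standard error 0.28, adjusted p = 9.82e-12). Fermt2 was at 0 CPM in every BMDM library and 76.8, 75.7 and 77.5 CPM in the 3T3 libraries. Fermt2 was at least 1234-fold higher in 3T3 cells. Hcls1, the cortactin relative of blood cells, was at 240.0 ± 1.72 CPM in BMDMs and 0.133 ± 0.0891 CPM in 3T3 cells, and Cttn, which encodes cortactin, at 0.553 ± 0.268 against 245 ± 1.67 CPM. Nckap1l and Nckap1, alternative subunits of the WAVE complex, were at 917 ± 12.9 CPM in BMDMs and 0.286 ± 0.304 CPM in 3T3 cells and at 3.12 ± 0.420 against 169 ± 7.55 CPM, in that order. Lyn (log2 fold change 7.76) and Yes1 (log2 fold change -6.73), kinases of the Src family, also differed in opposite directions. So did Prkcd (log2 fold change 3.68) and Prkca (log2 fold change -5.84), protein kinase C isoforms, but Prkcd still held 34.6% of this pair per kilobase in 3T3 cells. In other pairs the general member stayed in use in BMDMs: Rac1 was at 457 ± 11.8 CPM in BMDMs and 261 ± 24.6 CPM in 3T3 cells and Rac2 at 279.8 ± 8.43 against 0.509 ± 0.109 CPM, and Rac2 held 47.0 ± 0.458% of the pair per kilobase in BMDMs and 0.285 ± 0.0804% in 3T3 cells. Dock1 was at 54.01 ± 4.06 CPM in BMDMs and 80.2 ± 10.7 CPM in 3T3 cells, while Dock2 was at 425 ± 8.55 against 0.0539 ± 0.0544 CPM. Tpm4, a tropomyosin, was the only first member of a pair more than 2-fold higher in 3T3 cells, at 237 ± 4.73 CPM in BMDMs and 556 ± 30.95 CPM in 3T3 cells, and Vasp did not pass the test against 2-fold.

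**Figure D5:**
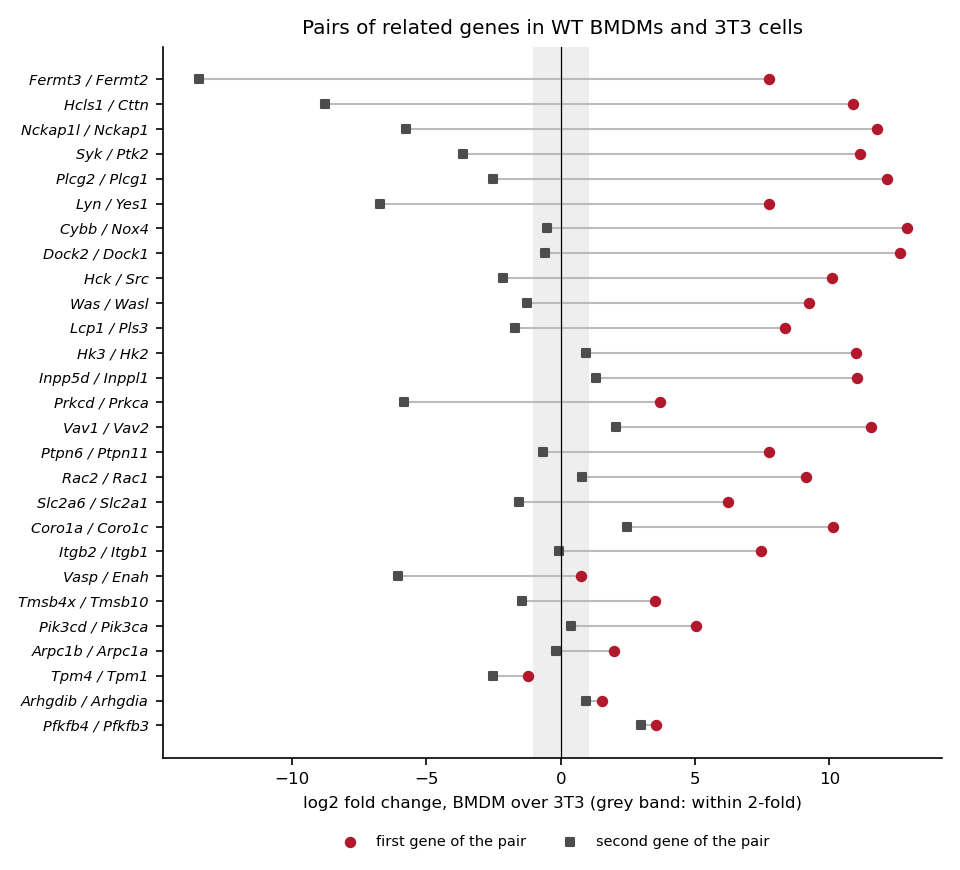
Log2 fold change, WT BMDM over 3T3 cells in WT medium, of both genes in the 27 pairs (red circles, first gene; grey squares, second gene), sorted by the distance between them. Values of genes at 0 in a group depend on the fit's prior count.

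Among all genes with at least 50 CPM in the higher group, genes were ranked by the fitted log2 fold change. For genes at 0 in a group this value depends on the prior count of the fit, so the order is not one of measured folds. The 10 with the highest fitted value in favour of BMDMs were Cd5l, Ly9, Pira2, Clec4a3, Ms4a14, Ms4a4a, Ly86, Plxdc2, Tlr8 and Sirpb1c. Cd5l, a secreted scavenger receptor of tissue macrophages, was at 579, 571 and 559.9 CPM in the BMDM libraries and 0 CPM in every 3T3 library. Cd5l was at least 12562-fold higher in BMDMs. Ly9, an adhesion molecule of leukocytes, was at 380.2, 375 and 365 CPM in the BMDM libraries and 0 CPM in every 3T3 library. Ly9 was at least 8229-fold higher in BMDMs. Most of the rest are surface proteins of leukocytes, and 9 of the 10 were at 0 in every 3T3 library. Pira2 and Sirpb1c belong to families of close copies, between which reads may be split.

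The 10 at the other end, in favour of 3T3 cells, were Dlk1, Eno1b, Crabp1, Ogn, Gm11361, Thbs2, Slit3, Kirrel, Rpl34-ps1 and Lum. Dlk1, a Notch-related protein of preadipocytes, was at 0, 0.0605 and 0 CPM in the BMDM libraries and 2054, 1856 and 1869.7 CPM in the 3T3 libraries. Dlk1 was 92793-fold higher in 3T3 cells, 95% counting interval 16654 to 3665100. Crabp1, which binds retinoic acid, was at 0 CPM in every BMDM library and 430.5, 343 and 345 CPM in the 3T3 libraries. Crabp1 was at least 5960.4-fold higher in 3T3 cells. Eno1b, Gm11361 and Rpl34-ps1 are near copies of other genes, and the split of reads is uncertain for them. Of the 31-base words in the annotated transcripts of Eno1b, 81.8% also occur in Eno1. The corresponding shares were 80.9% for Rpl34-ps1 in Rpl34 and 69.8% for Gm11361 in Rps18. Eno1b was at 0 CPM in every BMDM library and 484, 394 and 368 CPM in the 3T3 libraries. Eno1, the main enolase of glycolysis, was at 425 ± 2.72 CPM in BMDMs and 278 ± 21.8 CPM in 3T3 cells (log2 fold change 0.61) on its own, but the sum of Eno1 and Eno1b was 425 ± 2.72 CPM in BMDMs and 694 ± 82.2 CPM in 3T3 cells. The direction for enolase thus turned when the copy was added. Rpl34 and Rpl34-ps1 together were at 285 ± 3.96 CPM in BMDMs and 318 ± 52.4 CPM in 3T3 cells, and Rps18 and Gm11361 at 414 ± 12.2 and 650 ± 119 CPM. These sums leave out further copies, of which Gm10260, sharing 57.9% of the words of Gm11361, was at a mean of 0.0620 CPM in BMDMs and 371 CPM in 3T3 cells, and Gm4735, sharing 65.4% of those of Eno1b, at 1.37 and 86.1 CPM.

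Markers of other cell types were low in both cultures, with a few exceptions. Of 11 neutrophil and granulocyte markers, 8 did not pass the filter, and S100a9, Ly6g, Elane and Retnlg were at 0 in every library. Mmp8 made up nearly the whole sum of that list in BMDMs (129 to 135 CPM). Of 14 T, B and NK cell markers, 8 did not pass the filter, Cd3e and Ncr1 were at 0 throughout, and Ighm, the constant part of immunoglobulin M, was at 223, 216 and 214 CPM in the BMDM libraries and 3.103, 2.76 and 4.23 CPM in the 3T3 libraries. Ighm was higher in every BMDM library (log2 fold change 6.04, standard error 0.11, adjusted p = 1.55e-14). Dendritic and mast cell markers summed to 3.57 to 5.23 CPM in BMDMs. Erythroid and megakaryocyte markers summed to 15.7 to 17.1 CPM in BMDMs, nearly all from Pf4 (15.47 ± 0.697 CPM in BMDMs and 0.0473 ± 0.0537 CPM in 3T3 cells), and to 18.2 to 21.2 CPM in 3T3 cells, nearly all from Itga2b (0.722 ± 0.109 against 18.4 ± 1.63 CPM). Endothelial and epithelial markers summed to 51.0 to 62.3 CPM in BMDMs and 30.7 to 50.9 CPM in 3T3 cells, mostly Pecam1 (38 ± 5.91 CPM in BMDMs and 36.6 ± 10.9 CPM in 3T3 cells), while Kdr, a receptor for vascular endothelial growth factor, was at 17.5 ± 0.0663 against 0.0594 ± 0.0541 CPM. Adipocyte, bone, cartilage and muscle markers summed to 0.426 to 0.909 CPM in BMDMs and 60.4 to 67.3 CPM in 3T3 cells, where Sox9, a cartilage factor, was at 0.0851 ± 0.0997 CPM in BMDMs and 61.5 ± 3.42 CPM in 3T3 cells.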

How the data were processed

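RNA of WT BMDMs and of NIH/3T3 cells in WT medium had been sequenced as single reads of polyA RNA. The authors ran Kallisto against GRCm38 and deposited its estimated counts for each gene without normalization or filter. The values are whole numbers, and the strandedness of the libraries is not given in the sources used here. The table holds 32544 genes, and 0 columns could not be mapped. The members and gene lists were chosen with earlier results of these data known.

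With all 12 libraries in 4 groups, edgeR 4.0.16 (R 4.3.3) kept 14285 genes by filterByExpr, left out 18259, normalized by TMM and fitted the quasi-likelihood model. The contrast of WT BMDMs over 3T3 cells in WT medium was tested two-sided against no difference (glmQLFTest) and against 2-fold (glmTreat), with Benjamini-Hochberg adjustment over all genes and a threshold of 0.05. Adjusted p-values printed for genes come from the first test. CPM were scaled by the effective library size to 1e6. A fold against a group at 0 is a lower bound at a floor of 3 counts over that group (0.0620 CPM in BMDMs, 0.0454 CPM in 3T3 cells), and with 1 to 3 counts in a group the ratio has an exact 95% interval; both cover counting error only. Exon lengths, identifiers and positions come from GENCODE M21 on GRCm38. Whether the libraries cover whole transcripts is not given, which limits levels per kilobase.

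Named genes were a fixed set of anchors, per list up to 4 per direction with the largest change past the test against 2-fold, no overlap and at least 5 CPM in the higher group, members that went against the list's side, the 10 largest fitted log2 fold changes over all genes per direction with at least 50 CPM in the higher group, and the members of the pairs. Other members named for contrast were chosen after their values were seen. A comparison of motif shares between all genes higher in BMDMs and in 3T3 cells was void, because the promoter table held only 77.2 and 71.1% of these genes. The fits were tested on simulated data. Alternatives were DESeq2's size factors or total counts in edgeR, the DESeq2 1.42.0 Wald test, voom in limma 3.58.1, 10 counts or more in each of the 6 libraries as the filter, no filter beyond 1 count, only the 6 WT libraries, a block for the replicate number, leaving out each library, and the same contrast in the 6 libraries labelled PHD2cko. Some genes and alleles are not reported here.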

Additional observations from a re-analysis of the deposited data

How the results depend on the processing

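Direction and side of the threshold held for nearly all results under DESeq2's size factors, the DESeq2 Wald test, limma-voom, no filter beyond 1 count, the 6 WT libraries alone and the 6 libraries labelled PHD2cko, with the exceptions given here. The strictest filter, at least 10 counts in each of the 6 libraries, kept 10807 genes and drops by construction genes that are near 0 in 1 cell type. It left 1848 genes more than 2-fold higher in BMDMs and 1782 in 3T3 cells. On the BMDM side it left 8 macrophage transcription factors, 12 macrophage receptors, 14 innate sensors and effectors, 4 complement and 10 lipid uptake genes. On the 3T3 side it left 5 mesenchymal transcription factors, 11 mesenchymal receptors, 9 matrix glycoproteins, 9 collagen processing genes, 4 matrix proteases, 12 contractile genes, 7 collagens and 0 Hox genes. Of the pairs, 4 then had members more than 2-fold higher on opposite sides, 1 had the ligand in 3T3 cells and the receptor in BMDMs, and 2 had the reverse.

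With total counts in place of TMM, 4732 genes were higher in BMDMs and 7591 in 3T3 cells, or 2541 and 4093 by the test against 2-fold. Egln1 then turned to -0.14 and Tgfbr2 to -0.03 (log2 fold change). In the libraries labelled PHD2cko, C3, a complement component, was -0.47, Egln3 0.94 and Tgfbr2 -0.11, each opposite in sign to its WT value; the cause was not tested. Leaving out single libraries gave 2954 to 3006 genes more than 2-fold higher in BMDMs. The replicate numbers did not pair the samples (correlations of deviations -0.0105, 0.0023 and -0.113). A fit with the replicate block gave 2979 genes more than 2-fold higher in BMDMs and ended the calls of Egln1 and Vegfa, while Spp1 passed. Counts near the floor limit what can be said of genes below 0.1 CPM.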
